A study of Homo sapiens with 16 samples.

Results

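MI-2 was compared with vehicle in HBL-1 cells after 8 h on 7 of the 16 Illumina bead arrays of the series, across all genes. The members were taken from the sample labels alone: 3 arrays labelled HBL-1 with MI-2 and 4 arrays labelled HBL-1 with vehicle, all of 8 h. HBL-1 is an established human cell line of diffuse large B cell lymphoma of the activated B cell-like kind (ABC-type). The other arrays were 1 of HBL-1 with z-VRPR-fmk, a peptide inhibitor of the protease MALT1, and 8 of TMD8, a second ABC-type line, with the same 3 treatments. The sources used here give neither the dose of MI-2 nor what the vehicle was. The labels do not say whether replicates were grown apart, so the spread among arrays may be technical. The p-values reflect the spread within groups over all 16 arrays, TMD8 included, and nothing beyond it. HBL-1 is a single line, and the 7 arrays give no measure of spread between tumours.

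MALT1 is a paracaspase that, bound to BCL10, passes signals of the B cell receptor on to the transcription factor NF-kB. The small molecule MI-2 is described as an irreversible inhibitor of MALT1, and ABC-type lymphoma lines are known for constant NF-kB activity. When unfolded proteins collect in the endoplasmic reticulum (ER), the sensors IRE1, ATF6 and PERK start the unfolded protein response, in which XBP1 and ATF6 induce ER chaperones. PERK and other kinases that phosphorylate the initiation factor eIF2 alpha start the integrated stress response, in which ATF4 induces genes of amino acid synthesis, amino acid transport and tRNA charging.

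Median intensities were 85.0 to 103 on the 4 vehicle arrays and 84.3 to 90.1 on the 3 MI-2 arrays, and 34.1% to 40.5% of probes were detected. The 2 arrays numbered 2 had the lowest shares, 34.6% with vehicle and 34.1% with MI-2. Levels of different HBL-1 arrays correlated at 0.982 to 0.9939. Of 7 B cell markers, 6 were detected on all 7 arrays. Of 10 T cell markers 6 were detected on none, among them CD3D, CD3E and CD3G, and 0 on all 7 arrays, with 0 to 4 detected per array. Of 10 myeloid markers 3 were detected on none (CD14, S100A9 and ELANE) and 1 on all 7 arrays, with 1 to 6 detected per array. Of 6 NK cell markers 5 were detected on none, among them NCAM1 and NKG7. Of 6 erythroid markers 1 was detected on none and 0 on all 7 arrays, with 0 to 3 detected per array. Of 6 epithelial markers 4 were detected on none and 1 on all 7 arrays. All 6 plasma cell markers were detected on all 7 arrays. Of 6 fibroblast markers 5 were detected on none, while COL1A2, named after its values were seen, was detected on 0 of 4 vehicle arrays and on 3 of 3 MI-2 arrays, at 4.65 to 5.27 and at least 1.25-fold higher (limma adjusted p = 0.602), and its part in the results was not tested.

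The comparison asked which transcripts MI-2 raised or lowered against vehicle. Levels are log2 values after background correction and quantile normalization, a change is the MI-2 mean minus the vehicle mean of such levels, and SE is its standard error from limma. VPREB3, a relative of the surrogate light chain genes of B cell precursors, was at 7.71, 7.81, 7.43 and 7.55 on the 4 vehicle arrays and at 6.51, 5.72 and 6.41 on the 3 MI-2 arrays. The groups did not overlap, and the MI-2 array numbered 2 was the lowest. VPREB3 fell by 1.41 (SE 0.17, limma adjusted p = 0.00762), to 0.375 times its vehicle level. Within the same-numbered pairs it was lower by values of -1.21, -2.09 and -1.02, and with the replicate number as a block the change was -1.44 and did not pass (limma adjusted p = 0.41). Without background correction the change was -0.80, and with the authors' deposited log2 values -0.90, and both passed. SLC5A5, the sodium-iodide symporter, was at 5.22, 5.59, 5.65 and 5.53 with vehicle and at 4.84, 4.57 and 4.52 with MI-2. It fell by 0.86 (SE 0.12, limma adjusted p = 0.0272), was detected with vehicle on 4 arrays and with MI-2 on 1, and did not pass with the block (limma adjusted p = 0.441).

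These 2 genes made up the calls among 17575 genes tested, a share of 0.0114%, and 0 were called higher. An unadjusted p under 0.05 was reached by 454 higher genes (2.58%) and 485 lower ones (2.76%). The 3 MI-2 arrays lay above all 4 vehicle arrays for 466 genes (2.65%) and below them for 604 (3.44%). The median change of all genes was -0.016 and the median SE 0.16. The replicate block left 0 calls in limma, a smallest adjusted p of 0.41, and 1258 genes (7.16%) whose unadjusted p was under 0.05. Without the HBL-1 vehicle array numbered 2, 0 genes were called, and VPREB3 had a limma adjusted p of 0.052. The 2 calls also rest on the spread shared with the TMD8 arrays. With the HBL-1 arrays alone 0 genes were called, with limma adjusted p-values of 0.41 for VPREB3 and 0.832 for SLC5A5.

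**Figure D1:**
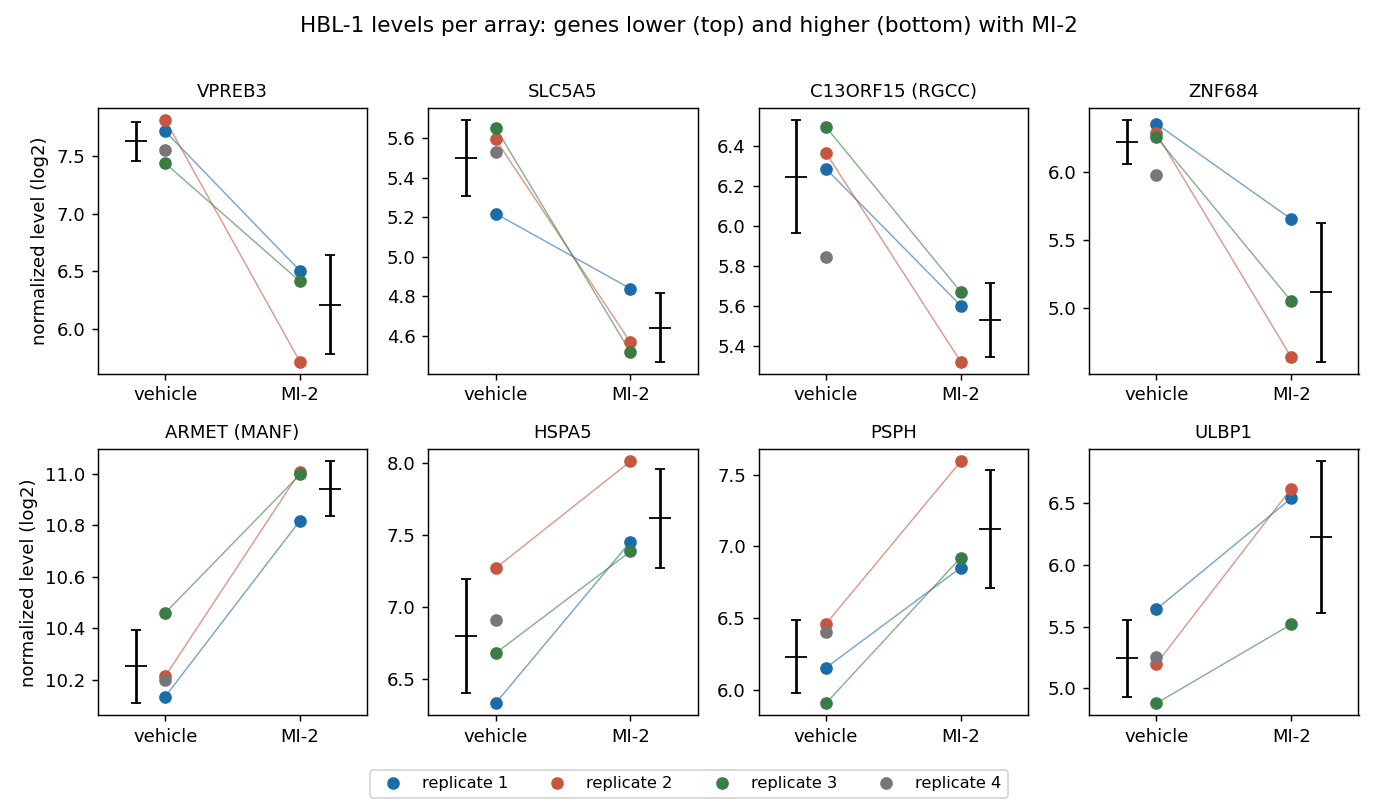
Normalized log2 level of 8 genes on each HBL-1 array with vehicle (4 arrays) and MI-2 (3 arrays), with lines joining same-numbered arrays, and bars giving the mean and SD of each group. VPREB3 and SLC5A5 passed the adjusted threshold and the other 6 genes did not; the groups overlap for ULBP1 alone among the 8.

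Beside VPREB3, the pre-B cell receptor components that could be measured were IGLL1, CD79A and CD79B. IGLL1, which encodes a part of the surrogate light chain, was at 10.93 to 11.28 with vehicle and 11.19 to 11.35 with MI-2, a change of 0.14 (SE 0.12), and its other probe differed by 0.02. CD79B and CD79A, the signalling subunits of the B cell receptor, had changes of 0.13 (SE 0.13) and -0.03 (SE 0.13), with the sign depending on the probe and the setting. None of these 3 passed, and their groups overlapped. VPREB3 was thus the only called gene of the 4 measured components of this list.

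Further genes whose MI-2 arrays all lay below the vehicle arrays did not pass the adjusted threshold. ZNF684, a zinc finger protein gene, was at 6.35, 6.28, 6.25 and 5.98 with vehicle and at 5.65, 4.64 and 5.05 with MI-2, a change of -1.10 (SE 0.25, limma adjusted p = 0.596) with detection on 4 arrays of vehicle and 2 of MI-2, and of -0.40 without background correction. C13ORF15, now called RGCC and known as a regulator of the cell cycle, was at 5.84 to 6.49 with vehicle and 5.32 to 5.67 with MI-2, a change of -0.71 (SE 0.15, limma adjusted p = 0.541). ZNF684 and C13ORF15 were lower in each of the 3 pairs, which follows for any gene whose MI-2 arrays all lay below the vehicle arrays. CHEK2, the DNA damage checkpoint kinase, differed by -0.53 (SE 0.13), and its other probe by -0.30. CD3EAP, now POLR1G and a subunit of RNA polymerase I, differed by -0.63 (SE 0.16). C11ORF83, now UQCC3 and an assembly factor of respiratory complex III, differed by -0.50 (SE 0.11). PCTK3, now the kinase CDK18, differed by -0.54 (SE 0.12) and was detected with vehicle on 4 arrays and with MI-2 on 1. ZNF845, another zinc finger gene, differed by -0.51 (SE 0.12). NLRP4, of the NLR family, was detected with vehicle on 3 arrays and with MI-2 on 0, and lay at least 1.17-fold lower. This bound sets the brighter group's mean against the lowest detected signal per array or the probe's own value, whichever is higher, and is used the same way below. Of the 5 genes with the largest smallest fall over the 3 pairs, HS.104792, an unnamed transcript, was at least 0.81 lower in each, and RCP9, now CRCP and a subunit of RNA polymerase III, at least 0.53 lower in each, both with overlapping groups. RCP9 was detected with vehicle on 4 arrays and with MI-2 on 1. The other 3 were VPREB3, ZNF684 and C13ORF15.

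Among the 10 highest moderated t values with groups that did not overlap, ARMET, HYOU1 and PSPH belong to stress lists described below. LOC439992, now RPS3AP5, is a pseudogene of the ribosomal protein gene RPS3A, so its probe may not tell the copies apart. It was detected on 0 of 4 vehicle arrays (levels of 4.19 to 4.34) and on 3 of 3 MI-2 arrays (5.18, 4.79 and 4.91), at least 1.26-fold higher (limma adjusted p = 0.212). TRA1P2, now HSP90B3P, is a pseudogene of the ER chaperone gene HSP90B1, and it was 0.72 higher (SE 0.14), while the probe of HSP90B1 was 0.31 higher (SE 0.12). C20ORF191, now NCOR1P1, is a pseudogene of the corepressor gene NCOR1 and was 0.57 higher (SE 0.13). CYB5R1, a reductase gene, was 0.55 higher (SE 0.12), IFRD1, a transcriptional coregulator gene, 0.60 (SE 0.14) and TM6SF1, a membrane protein gene, 0.65 (SE 0.16). LOC642198, with no current symbol matched, was detected on 0 of 4 vehicle and 3 of 3 MI-2 arrays, at least 1.15-fold higher. None of these passed, with limma adjusted p-values of 0.212 to 0.596.

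The largest smallest rise over the 3 pairs was taken by HSPA5, PSPH, GABARAPL1, ALDH1L2 and ULBP1. ULBP1, a ligand of the NK cell receptor NKG2D, was at 5.64, 5.20, 4.88 and 5.26 with vehicle and at 6.54, 6.62 and 5.52 with MI-2. It was 0.98 higher (SE 0.22, limma adjusted p = 0.541), but the MI-2 array numbered 3 lay within the vehicle range. GABARAPL1, an autophagy gene of the ATG8 family, was 0.67, 0.75 and 0.69 higher in the pairs, with overlapping groups, and its change of 0.84 was 0.33 without background correction. Without the MI-2 array numbered 3, limma called ULBP1 (adjusted p = 0.00782) and GAS2L2, and GAS2L2 is named here after its values were seen. GAS2L2 was at 4.33 to 4.48 on the vehicle arrays, where it was not detected, and at 5.68, 5.27 and 4.41 on the MI-2 arrays, 2 of which detected it.

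The ER unfolded protein response genes were taken next, as ER chaperones, folding enzymes, the degradation machinery and the response's own regulators. Of 30 genes listed, 29 passed the detection filter, and 28 of these were higher with MI-2, with a median change of 0.37 against -0.016 for all genes. None passed the adjusted threshold. At an unadjusted p under 0.05 there were 16 of 29 higher, beside 2.58% of all genes, and 0 lower. The MI-2 arrays lay above all vehicle arrays for 15 of 29 members, beside 2.65% of all genes. All 3 pairs were higher for 23 of 29, beside 12.9% of all genes. With the replicate block 21 of 29 were higher at an unadjusted p under 0.05, beside 3.53%. Plasma cell markers, 6 genes of which XBP1 is also on this list, had per-array medians of -0.24 to 0.15 with vehicle and 0.08 to 0.41 with MI-2, and their part in the result was not tested. The unfolded protein response list was chosen with earlier results of these data known and is not independent evidence of its direction.

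On single arrays the median of the list, relative to each gene's vehicle mean, was -0.02, 0.05, -0.05 and 0.03 with vehicle and 0.31, 0.47 and 0.30 with MI-2. The 3 MI-2 arrays lay above the 4 vehicle arrays, and the array numbered 2 was highest in both groups. Without both arrays numbered 2, 27 of 29 members were higher, 9 of them at an unadjusted p under 0.05 beside 1.98% of all genes, and the median was 0.32. Without the MI-2 array numbered 2 alone, 9 passed at that p, beside 2.16%. Scaling each array to its median, without quantile normalization, put the median change over all genes at -0.33, and the list's median was -0.09, or 0.24 relative to the median gene. The number at an unadjusted p under 0.05 and higher was then 0 of 29, beside 0.131% of all genes. The list's median was thus higher relative to other genes and not on the absolute scale of that setting. Single members differed on that absolute scale, with HSPA5 at 0.352 and CALR at -0.0153.

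Promoters of the stress genes were searched for 2 known elements, both strands: the ER stress response element (ERSE), which is CCAAT, 9 bases of any kind and CCACG, and the amino acid response element (CARE) bound by ATF4, TGATGNAA. The window was the 250 bases before the start of each gene in RefSeq's promoter table (GRCh38.p14), with the first listed start used for genes with several. The table held 27 of the 29 and 25 of the 30 measured members of the stress lists. ERSE was found in 6 of the 27 unfolded protein response promoters (22.2%), beside 0.0806% of 27305 promoters of all genes. The genes were HSPA5, HSP90B1, CALR, CANX, CRELD2 and XBP1. CARE was found in 2 of the 25 integrated stress response promoters (8.0%), those of ATF3 and ASNS, beside 3.19% of all. The next 6 windows are shown for these elements and not for the genes' values, each 5′ to 3′ on the gene's strand with the element in capitals.
HSPA5 (chr9:125241344-125241593, minus strand): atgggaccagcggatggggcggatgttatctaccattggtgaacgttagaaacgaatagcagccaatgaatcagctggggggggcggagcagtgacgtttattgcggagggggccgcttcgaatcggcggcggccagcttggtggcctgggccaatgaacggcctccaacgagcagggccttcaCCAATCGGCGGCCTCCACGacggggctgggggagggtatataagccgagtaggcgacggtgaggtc
HSP90B1 (chr12:103930160-103930409, plus strand): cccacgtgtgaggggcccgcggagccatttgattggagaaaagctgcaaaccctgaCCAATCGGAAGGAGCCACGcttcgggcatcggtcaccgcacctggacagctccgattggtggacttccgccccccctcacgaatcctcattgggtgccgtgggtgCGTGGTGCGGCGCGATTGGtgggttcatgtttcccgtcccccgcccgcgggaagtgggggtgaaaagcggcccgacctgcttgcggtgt
CALR (chr19:12938359-12938608, plus strand): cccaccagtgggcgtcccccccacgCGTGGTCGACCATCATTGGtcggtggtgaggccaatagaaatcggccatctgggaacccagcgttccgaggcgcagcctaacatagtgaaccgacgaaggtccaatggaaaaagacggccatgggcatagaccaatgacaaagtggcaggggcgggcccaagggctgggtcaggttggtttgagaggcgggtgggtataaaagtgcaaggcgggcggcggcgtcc
XBP1 (chr22:28800570-28800819, minus strand): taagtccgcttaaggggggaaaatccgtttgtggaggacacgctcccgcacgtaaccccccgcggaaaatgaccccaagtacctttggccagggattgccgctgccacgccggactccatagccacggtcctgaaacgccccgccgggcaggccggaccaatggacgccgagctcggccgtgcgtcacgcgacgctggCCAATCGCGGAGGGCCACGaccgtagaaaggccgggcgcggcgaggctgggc
ASNS (chr7:97872409-97872658, minus strand): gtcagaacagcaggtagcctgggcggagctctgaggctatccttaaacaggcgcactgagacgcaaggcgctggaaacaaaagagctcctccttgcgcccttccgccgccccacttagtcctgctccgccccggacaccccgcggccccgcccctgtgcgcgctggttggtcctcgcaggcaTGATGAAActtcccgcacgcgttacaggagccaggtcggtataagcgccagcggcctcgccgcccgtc
ATF3 (chr1:212565157-212565406, plus strand): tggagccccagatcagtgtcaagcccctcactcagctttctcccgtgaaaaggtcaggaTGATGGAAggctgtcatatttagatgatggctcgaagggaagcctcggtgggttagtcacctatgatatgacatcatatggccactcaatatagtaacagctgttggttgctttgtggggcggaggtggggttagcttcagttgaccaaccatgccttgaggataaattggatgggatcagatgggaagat
The HSP90B1 window holds 2 elements that lie on opposite strands, and in CALR the element lies on the strand opposite the gene. A match describes the letters only, and a window without one says nothing of the factor. The elements were known and the lists were made of known stress genes, so a higher share in a list is not a result about MI-2.

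HSPA5, the main ER chaperone (BiP), whose window above holds an ERSE, was at 6.33, 7.27, 6.68 and 6.91 with vehicle and at 7.45, 8.01 and 7.39 with MI-2. The groups did not overlap, and the vehicle array numbered 2 was the highest of its group, and so was the MI-2 array numbered 2. The change was 0.82 (SE 0.28, limma adjusted p = 0.852), or 1.76-fold, and 1.12, 0.74 and 0.71 in the pairs, and it was 0.51 without background correction. ARMET, now MANF, a protein secreted on ER stress, was at 10.13, 10.21, 10.46 and 10.20 with vehicle and at 10.82, 11.01 and 11.00 with MI-2. It was 0.69 higher (SE 0.13, limma adjusted p = 0.372), or 1.61-fold, with no overlap. With trended and robust variance moderation ARMET passed (limma adjusted p = 0.0359).

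HYOU1, an ER chaperone of the HSP70 family, was at 7.88, 7.85, 7.85 and 7.61 with vehicle and at 8.50, 8.52 and 8.31 with MI-2, and its other probe was 0.46 higher. SDF2L1, a partner of HSPA5, was at 10.17 to 10.23 on the 4 vehicle arrays and at 10.78, 10.91 and 10.66 with MI-2, a change of 0.60 (SE 0.15, limma adjusted p = 0.684). DNAJC3, a co-chaperone that also inhibits PERK, was at 5.45 to 5.72 with vehicle and 5.85, 6.13 and 6.48 with MI-2. CALR, the lectin chaperone calreticulin, was at 9.93 to 10.06 with vehicle and 10.34 to 10.51 with MI-2, and SEC61A1, the main subunit of the ER translocation channel, was 0.38 higher (SE 0.13). In each of HYOU1, SDF2L1, DNAJC3 and CALR the 3 MI-2 arrays lay above the 4 vehicle arrays. HSP90B1, the ER paralogue of HSP90, was at 11.88 to 12.06 with vehicle and at 12.27, 12.26 and 12.28 with MI-2. XBP1, the transcription factor that IRE1 activates by splicing, was 0.39 higher (SE 0.20), which a probe for the gene does not divide into spliced and unspliced RNA. The sensors themselves had small changes, 0.06 for ERN1 (IRE1) and 0.04 for ATF6, and WFS1, an ER membrane protein gene, was the one member lower, by a change of -0.03.

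The integrated stress response list held 33 genes, of which 30 passed the detection filter and 29 were higher, with a median change of 0.34. None passed the adjusted threshold. At an unadjusted p under 0.05 there were 12 of 30 higher, beside 2.58% of all genes, and 0 lower. The MI-2 arrays lay above all vehicle arrays for 9 of 30, beside 2.65%, and all 3 pairs were higher for 23 of 30, beside 12.9%. With the replicate block 18 of 30 were higher at that p, beside 3.53%. The list's median on single arrays was 0.04, 0.14, -0.24 and -0.00 with vehicle and 0.33, 0.63 and 0.17 with MI-2. The lowest MI-2 array lay only just above the highest vehicle array, and the order of the numbers 2, 1 and 3 was the same in both groups.

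This count depended on both arrays numbered 2, each the highest of its group for this list. Without the MI-2 array numbered 2 alone, 3 of 30 members were higher at an unadjusted p under 0.05, beside 2.16% of all genes, and the median was 0.22. Without the vehicle array numbered 2 alone there were 17 of 30, beside 2.54%. Without both arrays numbered 2 there were 8 of 30, beside 1.98%, with 27 of 30 higher and a median of 0.28. With scaling to array medians the number was 1 of 30, beside 0.131%. The list's median was then -0.09, or 0.24 relative to the median gene.

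**Figure D2:**
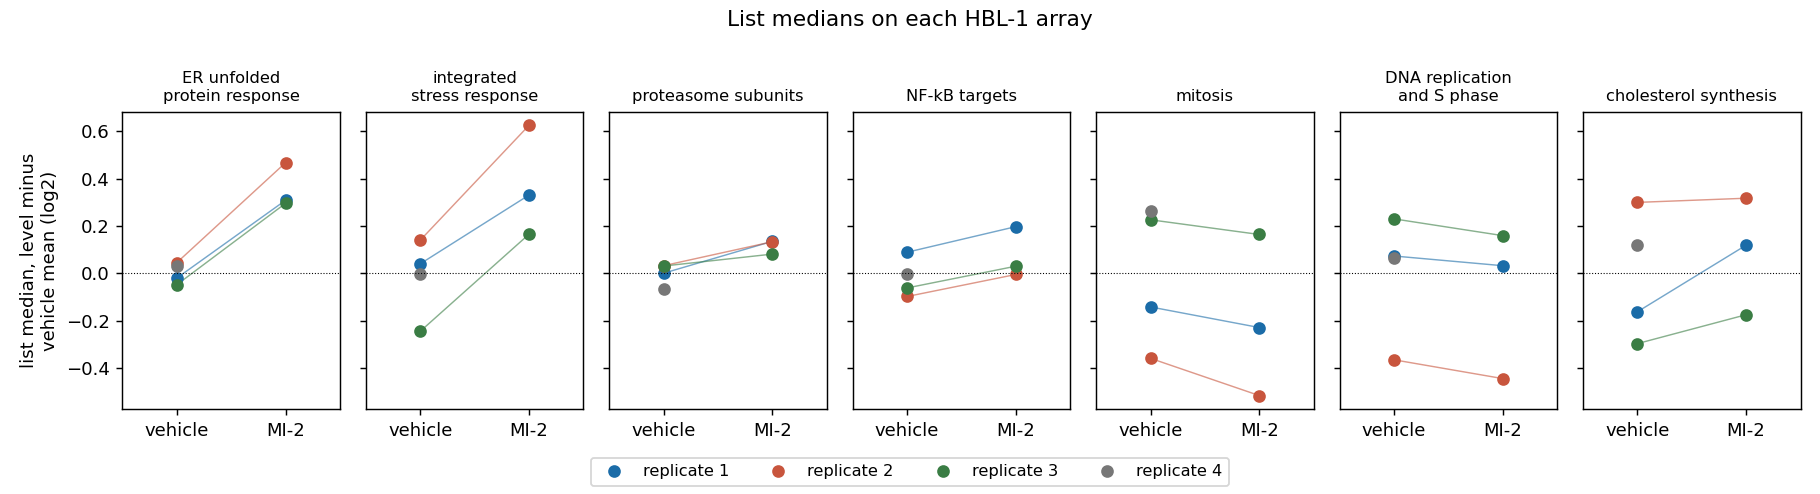
Median level over the members of 7 gene lists on each HBL-1 array, each gene taken relative to its vehicle mean (log2), with lines joining same-numbered arrays. For the ER unfolded protein response the MI-2 arrays at 0.30 to 0.47 lie above the vehicle arrays at -0.05 to 0.05, while the mitosis medians range from -0.52 to 0.26 and follow the replicate number.

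PSPH, which completes the synthesis of serine, was at 6.15, 6.46, 5.91 and 6.41 with vehicle and at 6.85, 7.59 and 6.92 with MI-2. It was 0.89 higher (SE 0.20, limma adjusted p = 0.541), or 1.85-fold, without overlap, and its other probe was 0.18 higher. With the deposited values the change was 0.38. PSAT1, the enzyme of the step before, was at 10.02 to 10.87 with vehicle and 10.79 to 11.43 with MI-2, with overlap. ALDH1L2, a mitochondrial folate enzyme, was 0.64, 0.88 and 1.43 higher in the pairs, while its vehicle arrays spread from 5.91 to 7.36. Its change was 0.85 (SE 0.31), and its other probe was 0.40 higher. CEBPB, a leucine zipper factor active in stress and inflammation, was at 9.14, 9.20, 8.84 and 9.29 with vehicle and at 9.77, 10.05 and 9.44 with MI-2, a change of 0.64 (SE 0.15, limma adjusted p = 0.596). DDIT3, the transcription factor CHOP, was at 6.24, 6.52, 5.74 and 6.26 with vehicle and at 6.78, 7.38 and 6.64 with MI-2. Neither CEBPB nor DDIT3 had overlapping groups. TRIB3, a pseudokinase induced by ATF4 and CHOP, was 0.57 higher (SE 0.19), and its MI-2 array numbered 3 lay within the vehicle range. VLDLR, a lipoprotein receptor, was 0.73 higher (SE 0.23) with detection on 1 array of vehicle and 3 of MI-2. The probes used for the transcription factor ATF4 itself, for ATF3 and for asparagine synthetase (ASNS) differed by 0.26, 0.31 and 0.32. Other probes of ATF4 differed by -0.13 and 0.26, so its probes did not share a direction, and the other probe of ASNS differed by 0.36. ASNS, whose window above holds a CARE, was at 10.77 to 11.78 with vehicle and 11.24 to 11.92 with MI-2, so its groups overlapped. The member lower was NUPR1, a stress cofactor, at -0.07.

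The cytosolic aminoacyl-tRNA synthetases, which charge tRNAs and include known ATF4 targets, had 14 of 20 members higher and a median change of 0.17. At an unadjusted p under 0.05 there were 4 higher, beside 2.58% of all genes, and 0 lower. These were AARS (0.42, SE 0.13), MARS (0.49, SE 0.16), GARS (0.37) and WARS (0.50, SE 0.22), the synthetases for alanine, methionine, glycine and tryptophan. CARS, for cysteine, was at 0.49 and TARS, for threonine, at 0.23, while FARSA, a subunit for phenylalanine, was at -0.25. None passed the adjusted threshold, and the list's median was 0.02 relative to the median gene with scaling to array medians, and 0.08 without the MI-2 array numbered 2.

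NRF2 antioxidant genes had 13 of 19 measured members higher, a median change of 0.16 and 4 higher at an unadjusted p under 0.05, beside 2.58% of all genes. They included UGDH, an enzyme of glucuronide synthesis (0.46, SE 0.16), and KEAP1, the repressor of NRF2 (0.44, SE 0.15, and 0.12 for its other probe). GCLM, a subunit of the enzyme that starts glutathione synthesis, was at 0.36 (SE 0.16), and its other probe at 0.20. The last was TALDO1, of the pentose phosphate pathway (0.27, SE 0.12). SRXN1, which repairs peroxiredoxins, was at 0.33 (SE 0.18). ABCC1, a glutathione conjugate exporter, was at -0.31 (SE 0.16), and the classical targets NQO1, TXNRD1 and HMOX1 were at 0.09, 0.19 and 0.37. With scaling to array medians the list's median was 0.05 relative to the median gene.

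Proteasome subunit genes were higher for 26 of 31, with a median of 0.12 and 1 at an unadjusted p under 0.05, beside 2.58% of all genes higher at that p. That member, PSMD7 of the regulatory particle, was at 10.88, 10.72, 10.69 and 10.69 with vehicle and at 11.05, 11.11 and 11.02 with MI-2, a change of 0.31 (SE 0.11, limma adjusted p = 0.807). PSMD8 and PSMD2, of the same particle, were at 0.28 (SE 0.13) and 0.25 (SE 0.12). With scaling to array medians the list's median was -0.01 relative to the median gene.

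**Figure D3:**
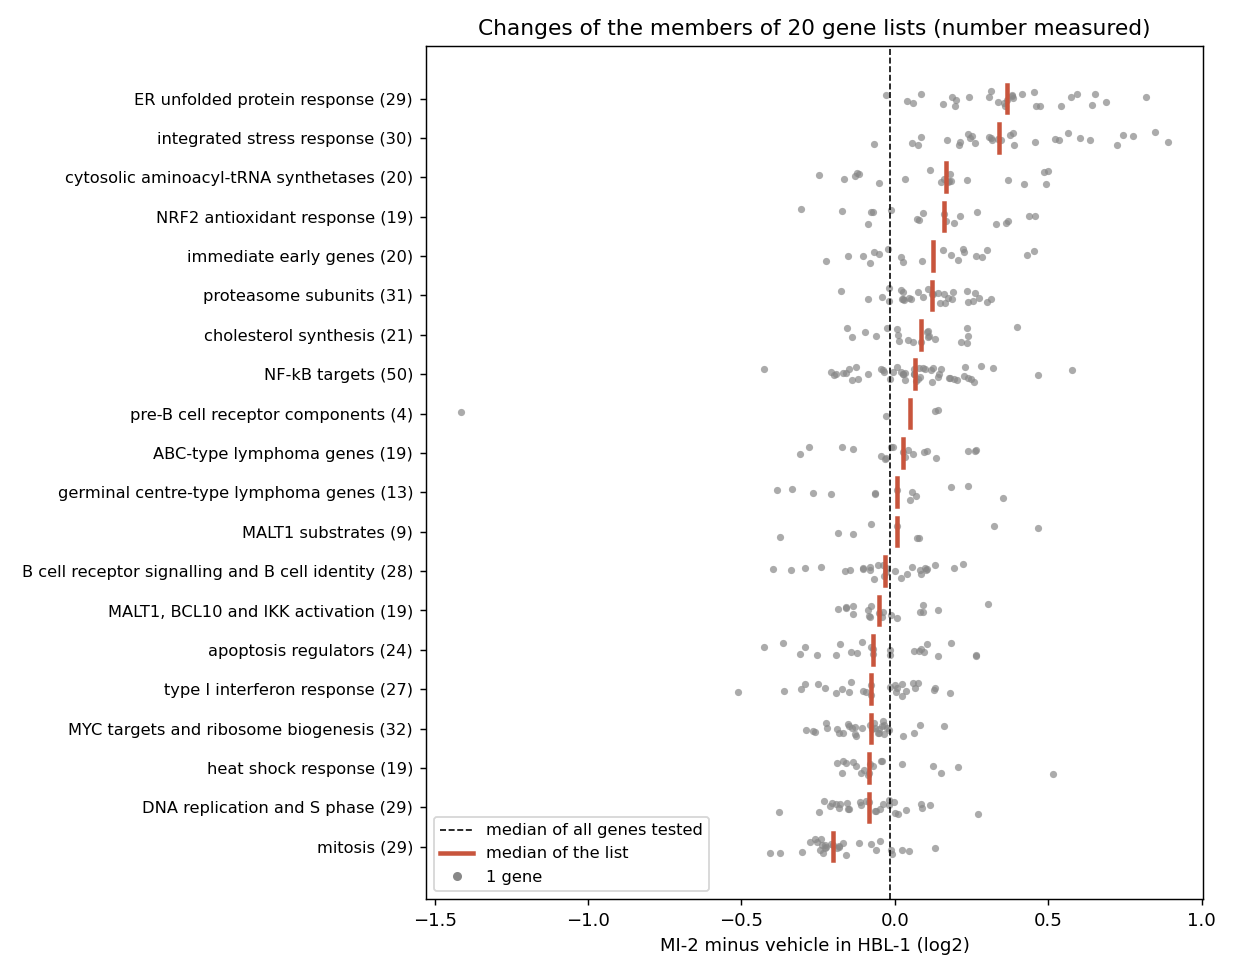
Change with MI-2 in HBL-1 (log2) of every measured member of 20 gene lists, 1 point per gene, with the median of each list and of all 17575 genes tested. The ER unfolded protein response and the integrated stress response have medians of 0.37 and 0.34, the mitosis list has -0.20, and the point at -1.41 is VPREB3.

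NF-kB targets were asked about since MALT1 feeds this factor. Of 50 measured targets 34 were higher and 16 lower, with a median change of 0.07. At an unadjusted p under 0.05 there were 2 higher, beside 2.58% of all genes, and 1 lower, beside 2.76%. The groups stayed apart for 0 of 50, beside 2.65% of all genes above and 3.44% below. The higher ones were TNFAIP3 (A20), a deubiquitinase and feedback inhibitor, and CCR7, a chemokine receptor. TNFAIP3 was at 8.36, 7.72, 8.00 and 7.74 with vehicle and at 8.90, 8.49 and 7.88 with MI-2, a change of 0.47 (SE 0.20, limma adjusted p = 0.91), with -0.12 in the pair numbered 3. CCR7 was at 8.21 to 9.19 with vehicle and 8.72 to 9.70 with MI-2. The lower one, FAS, a death receptor, was at -0.43 (SE 0.16), detected with vehicle on 3 arrays and with MI-2 on 1, and -0.06 on its other probe. NFKBIA, the inhibitor I kappa B alpha, was at 11.16 to 11.46 with vehicle and 11.45 to 11.76 with MI-2, a change of 0.25 (SE 0.14). The subunits NFKB2 and RELA were at 0.28 (SE 0.18) and 0.24 (SE 0.15). None of these passed, and with scaling to array medians the list's median was -0.04 relative to the median gene.

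In the list of MALT1, BCL10 and the kinases and ligases that activate IKK, the median change was -0.05. An unadjusted p under 0.05 was reached by 0 of these 19 genes, beside 2.58% of all genes higher and 2.76% lower. MALT1 was at 7.43, 7.07, 7.14 and 7.15 with vehicle and at 7.44, 6.97 and 6.94 with MI-2, a change of -0.08 (SE 0.14), with 0.14 on its other probe. BCL10 was at 6.25 to 6.54 with vehicle and at 6.57, 6.10 and 5.85 with MI-2. TRAF6, a ubiquitin ligase, was at 0.30 (SE 0.17, and 0.04 on its other probe) and the IKK subunits CHUK and IKBKB at -0.16 (SE 0.14) and 0.09 (SE 0.12). Of 9 genes for MALT1 substrates 5 were higher and 4 lower. Their median change was 0.007, and it lay between -0.125 and 0.0965 in other settings. At an unadjusted p under 0.05 there were 2 higher, TNFAIP3 and ZC3H12A, beside 2.58% of all genes, and 0 lower. The lowest member, MAP3K14, was at -0.37 (SE 0.23). ZC3H12A, the RNase Regnase-1, was at 7.18 to 7.41 with vehicle and at 7.65, 7.69 and 7.47 with MI-2, a change of 0.33 (SE 0.12, limma adjusted p = 0.88) without overlap. RNA levels do not measure the cleavage of these proteins.

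Mitosis genes lay lower for 26 of 29, with a median change of -0.20. An unadjusted p under 0.05 was reached by 0 of 29, beside 2.58% of all genes higher and 2.76% lower. The groups stayed apart for 0 of 29, beside 2.65% of all genes above and 3.44% below. The list's median per array was -0.14, -0.36, 0.23 and 0.26 with vehicle and -0.23, -0.52 and 0.16 with MI-2, so the arrays numbered 1 and 2 were low in both groups. Within pairs the medians were -0.10, -0.17 and -0.01, and with the block the list's median was -0.10. Without the MI-2 array numbered 2 it was -0.01. CCNB1, the mitotic cyclin, was at 7.61 to 8.04 with vehicle and at 7.55, 6.94 and 7.78 with MI-2, a change of -0.41 (SE 0.20). BUB1, of the spindle checkpoint, was at -0.37 (SE 0.25) and the kinase AURKA at -0.30 (SE 0.22).

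The remaining lists had medians between -0.09 and 0.12. DNA replication and S phase genes were lower for 23 of 29 (median -0.09), and MYC targets with ribosome biogenesis genes for 28 of 32 (median -0.08), with 0 and 1 lower at an unadjusted p under 0.05. The medians were 0.12 for immediate early genes, 0.09 for cholesterol synthesis, 0.01 for germinal centre-type and 0.03 for ABC-type lymphoma genes, and -0.03 for B cell receptor and B cell identity genes. They were -0.07 for apoptosis regulators, -0.08 for the type I interferon response and -0.09 for the cytosolic heat shock response. None of these lists had a member past the adjusted threshold, and of their 232 entries 1 was higher and 6 were lower at an unadjusted p under 0.05, beside 2.58% and 2.76% of all genes. Without the MI-2 array numbered 2 the median was 0.10 for the S phase list, 0.01 for the interferon response and -0.04 for cholesterol synthesis, each of the opposite sign. The signs of the 2 lymphoma lists and of the apoptosis list also turned in other settings, to medians between -0.07 and 0.01.

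Whether MI-2 acted differently in HBL-1 and in TMD8 was tested as the HBL-1 change minus the TMD8 change. Limma called 0 of 17575 genes, the smallest adjusted p was 0.798, and 715 genes (4.07%) had an unadjusted p under 0.05. The block likewise gave 0 calls and 1074 genes (6.11%) at that p. In TMD8 itself 0 genes were called by limma and 816 (4.64%) reached that p. Of the integrated stress response, 29 of 30 members had a larger change in HBL-1, by a median of 0.33, and 9 of 30 had an unadjusted p under 0.05 for the difference, beside 2.08% of all genes in that direction. In TMD8 12 of its 30 members were higher, with a median change of -0.03. Of the unfolded protein response, 26 of 29 had a larger change in HBL-1, by a median of 0.19, with 1 of 29 at an unadjusted p under 0.05, and in TMD8 23 of 29 were higher, with a median of 0.16.

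The single genes named for the difference had the largest moderated t among the genes already named here, and need not have the largest differences. Many of those genes had been named for their HBL-1 change, which is part of the difference. This choice favours large differences, so their sizes are descriptive and not independent of it. CEBPB was 0.64 higher in HBL-1 and at -0.16 in TMD8, a difference of 0.80 (SE 0.22), and PSMD7 differed by 0.51 (SE 0.15). In the negative direction C11ORF83 and ZNF684 differed by -0.61 (SE 0.16) and -1.28 (SE 0.36), with ZNF684 detected on 2 of 3 MI-2 arrays in both lines. The limma adjusted p-value of each of these 4 genes was 0.999. The other 6 genes were detected on no MI-2 array of TMD8, so no size of the difference is given. LOC439992, TM6SF1 and C13ORF15 were each detected in TMD8 on 1 array of vehicle and 0 of MI-2, and SLC5A5 and ULBP1 on 0 of the 7 arrays compared. VPREB3 was detected in TMD8 on 3 arrays of vehicle and 0 of MI-2. LOC439992 had the smallest limma adjusted p of the difference, 0.798, and the other 5 had 0.999.

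**Figure D4:**
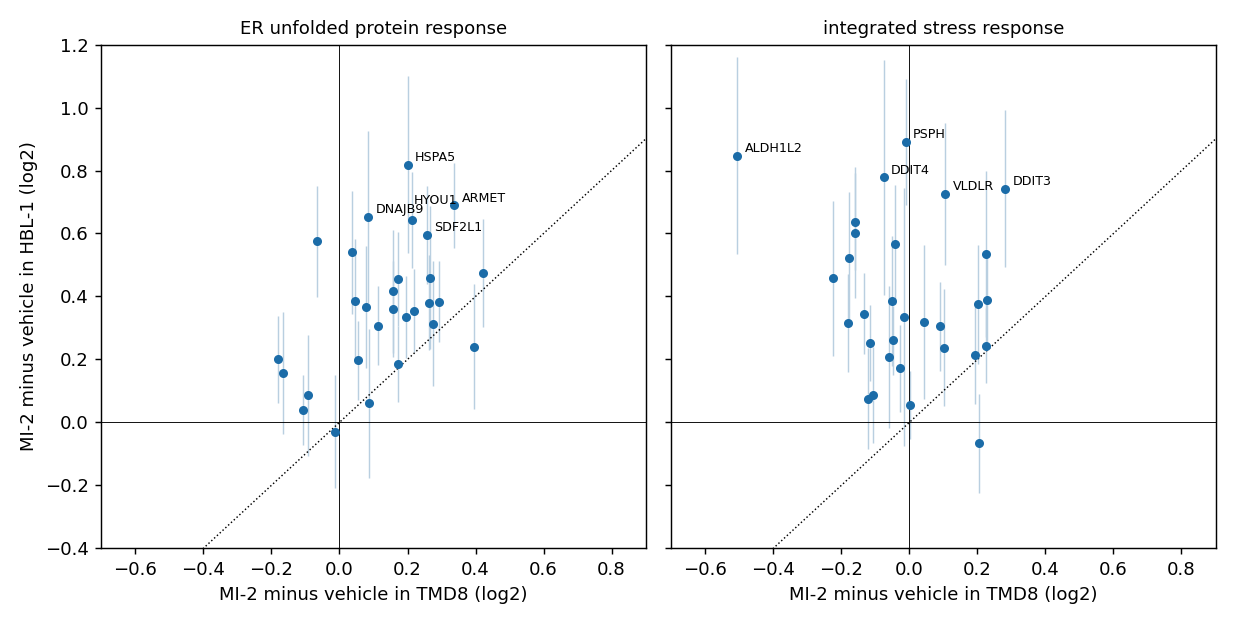
Change with MI-2 in HBL-1 (vertical, log2, with SE) against the change in TMD8 (horizontal, log2) for the measured members of the ER unfolded protein response (29) and the integrated stress response (30), with the line of equal change dotted. Of the former 26 and of the latter 29 lie above the dotted line.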

How the data were processed

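Per the labels' protocols, total RNA was extracted with Trizol and RNeasy, made into biotin-labelled cRNA with an Ambion MessageAmp kit and hybridised to Illumina bead arrays. Per the file headers, the authors deposited an unnormalized linear intensity and a detection p-value for each of 47323 probes on each array. The authors also deposited log2 values for 34687 gene names, with scale processing and centring unstated. Partek stands in the submitters' processing notes with no version or role.

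The intensities carry probe identifiers and the log2 values carry gene names, so names were joined to probes by value. A name was matched where its log2 values followed the mean intensity of neighbouring probes on all 16 arrays within 0.02 log2. In all 34674 names matched, 26209 of them to 1 probe, 13 did not, and 4 matched after the arrays were shuffled. Of the 17575 names tested, 10635 are current RefSeq symbols, 1951 a synonym of one and 1215 carry a current gene ID. Names are printed as deposited.

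Intensities were background corrected and quantile normalized with limma's neqc (version 3.58.1, R 4.3.3, offset 16). Probes with a detection p-value under 0.05 on at least 3 of 16 arrays were kept (22408), and of several probes for a gene (3717 genes) the one of highest mean level was used. Limma (lmFit, eBayes) fitted 6 group means over all 16 arrays. Tests were two-sided, with Benjamini-Hochberg adjustment over all genes at 0.05. The number of arrays limits the precision. On simulated data for this comparison (17575 genes) the fit recovered 20% of genes changed by 0.5 log2, 92% at 1 and 100% at 1.5 and at 2, with 12 false calls. There 50 genes were changed at each of these sizes, far more than the 2 called here. The adjusted threshold is easier to pass when more genes change, so these shares may overstate the recovery on the arrays themselves.

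Same-numbered MI-2 and vehicle arrays deviated together from their group means (correlations of 0.225, 0.247 and 0.283, against -0.227 to 0.174 for other numbers). The numbers come from the sample labels. The 3 same-numbered correlations, each above the highest value of 0.174 for other numbers, are the basis for reading the numbers as pairs. A fit with the replicate number within line as a block is therefore given where it changes a call.

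Genes were named by rule: those past the threshold; the 10 highest and 10 lowest moderated t among genes whose groups did not overlap; up to 6 members of each list described (with MALT1, BCL10, NFKBIA, TNFAIP3 and all pre-B components); the 5 per direction with the largest smallest difference over the 3 pairs; and the 5 per direction among these that differed most between the lines. Others are background, a member at the end of its list, or named for a promoter element. The comparison and the 20 lists were chosen with earlier results of these data known. Alternatives were background correction, normalization, the deposited log2 values, filters, the probe rule, the offset, the block, HBL-1 arrays alone, variance moderation and leaving out each array.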

Additional observations from a re-analysis of the deposited data

Results flagged for a closer look

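Among 78 named genes, 5 had 1 vehicle array far from the other 3, by the share of the group's whole range taken by its gap to the nearest array; chance gives about 5% of genes such a gap. HYOU1, the ER chaperone, was at 7.61 on vehicle array 4 and at 7.85 to 7.88 on the others, a share of 0.864. PSMD7, the proteasome subunit gene, was at 10.88 on vehicle array 1 and at 10.69 to 10.72 on the others (0.836). NFKB2, the NF-kB subunit gene, was at 5.68 on vehicle array 2 and at 6.39 to 6.50 on the others (0.864). RBCK1, which encodes a ubiquitin ligase subunit that MALT1 cleaves, was at 7.30 on vehicle array 1 and at 7.58 to 7.62 on the others (0.854). LOC642198 was at 4.58 on vehicle array 4 and at 4.22 to 4.28 on the others (0.831), on arrays where it was not detected.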

How the results depend on the processing

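The number of called genes was 0 with arrays scaled to their medians, 0 with the replicate block, 0 with the HBL-1 arrays alone, 1 with an offset of 50, and 0 without both arrays numbered 2, the last an alternative chosen after seeing the data. Leaving out 1 HBL-1 array gave 0 to 3 calls, 0 without vehicle array 2. Without background correction, and with the authors' deposited log2 values, SLC5A5 was lost and UCHL1, named after its values were seen, was called as higher beside VPREB3 (0.40, SE 0.10 in the analysis as reported). VPREB3 passed in 13 of 18 alternatives (limma adjusted p = 0.00121 to 0.41). Its change was -1.44 with median scaling relative to the median gene, -1.44 with the block, -1.4 with HBL-1 arrays alone and -1.11 without both arrays numbered 2, and did not pass there; it was -1.56 to -1.17 with 1 array left out. It passed at -0.804 without background correction and at -0.901 with the deposited values. SLC5A5 passed in 5 of 18 (limma adjusted p = 0.0176 to 0.832). Where it did not, its change was -0.248 without background correction, -0.673 with median scaling, -0.296 with the deposited values, -0.426 with the offset of 50, -0.845 with the block, -0.887 with HBL-1 arrays alone, -0.856 with trended and robust moderation and -0.819 without both arrays numbered 2; it was -0.955 to -0.795 with 1 array left out. Both genes were lower in every alternative run. The block changed no other call.

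The unfolded protein response median was 0.241 with median scaling, relative to the median gene, and 0.291 with the deposited values, both further from 0.366 than the spread between arrays. No alternative gave a median of this list or of the integrated stress response below 0, except on the absolute scale of median scaling. Of 1400 values of named genes under alternatives, 9 had the opposite sign, in 4 genes whose changes as reported lay between -0.08 and 0.13. CD79A was at 0.012 with the deposited values, 0.111 as the mean of its probes and -0.0853 to 0.0559 with 1 array left out. CD79B was at -0.0355 and -0.0361 in the first 2 of these, IKBKB at -0.0587 with median scaling, and MALT1 at 0.0324 as the mean of its probes and -0.242 to 0.0101 with 1 array left out. The cause was not tested. The change of 43 of 78 named genes was more than 1.5 times smaller without background correction, of 42 with the deposited values, of 24 with median scaling and of 21 with the offset of 50. PSPH went from 0.891 to 0.481 and 0.382 in the first 2 of these, HSPA5 from 0.818 to 0.505 and 0.551, GABARAPL1 from 0.838 to 0.327 and 0.385, and ZNF684 from -1.1 to -0.395 and -0.465. Without the MI-2 array numbered 2 it was that much smaller for 14 of 77. Dim probes limit SLC5A5, VLDLR, NLRP4, LOC439992, LOC642198, PCTK3, RCP9, FAS and ZNF684, which were not detected on every HBL-1 array compared.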
